A study of Mus musculus with 14 samples.

Results

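The 10 genes described here encode the enzymes that write methylation on lysine 4 of histone H3 (H3K4) and the core of the complex that writes it on lysine 27 (H3K27). Kmt2a, Kmt2b, Kmt2c, Kmt2d, Setd1a and Setd1b encode the catalytic subunits of the COMPASS family, and Ezh1, Ezh2, Eed and Suz12 encode the core of Polycomb repressive complex 2 (PRC2). They were chosen by name, with earlier results of these data known, and are 10 of the 56923 genes in the count table of mouse 2-cell embryos.

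H3K4 trimethylation marks active promoters, and H3K4 monomethylation marks enhancers. Each COMPASS enzyme works with a shared set of partner proteins that position the nucleosome and raise its activity. PRC2 places H3K27 trimethylation, which keeps developmental genes silent, and needs EED and SUZ12 as well as a catalytic EZH subunit to work. Around fertilisation both marks are rebuilt, and much of the RNA in an early 2-cell embryo was made by the oocyte, while by the late 2-cell stage transcription of the embryo's own genome, the major zygotic genome activation (ZGA), is under way.

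RNA was sequenced from 14 libraries in 7 groups of 2, each library made from 5 pooled embryos of ICR mice, aged 6 to 8 weeks. The G&N embryos were cultured from 24 h post-hCG in mKSOM with 10 mM lactate, 5 μM Gne140 (an inhibitor of both lactate dehydrogenases, LDHA and LDHB) and 50 μM NMN (a precursor of NAD), and the G&N-L embryos in the same medium without lactate. Both groups were collected as early 2-cell embryos at 30 h and as late 2-cell embryos at 54 h post-hCG. The remaining groups were late 2-cell embryos: G&N-L embryos injected as zygotes with 1 mM Lac-CoA (lactyl-coenzyme A, the donor for histone lactylation), embryos given at 14 h post-hCG an injection of H3 mRNAs, of the variants H3.1, H3.2 and H3.3, with lysine 18 replaced by arginine (H3K18R), and embryos that received the wild-type H3 mRNAs (WT). The H3K18R and WT labels name neither Gne140 nor NMN. The groups follow the titles of the libraries, and 3 other labels differ from them: early libraries titled G+N-L carry a treatment label that does not mention missing lactate, early libraries titled G+N carry one that leaves out NMN, and the Lac-CoA libraries carry one that says CoA. Every early result below depends on the titles being right, and the protocol gives 3 replicates a group where the table holds 2.

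Library totals ran from 20350427 to 61275465 counts. On these totals, before any normalisation, a count of 0 allowed up to 0.049 to 0.147 CPM. Levels are counts scaled by library size (CPM) on TMM-normalised library sizes, and a level compared between genes is CPM per kilobase of exon. A CPM is a share of a library's RNA, so less of one transcript per embryo and more RNA of other genes cannot be told apart. The 10 markers of 2-cell embryos, such as the Zscan4 genes, summed to 628 to 921 CPM early and to 1098 to 3543 CPM late. The 9 oocyte markers, such as Btg4 and Gdf9, summed to 20530 to 27420 CPM early and to 3546 to 19190 CPM late. Btg4 alone had 13054 to 17251 CPM early and 1291 and 1298 CPM in WT libraries. Zp3, also in the list, did not follow the sum, at 31.0 to 65.2 CPM early and 114 and 156 CPM in WT libraries. Gdf9 had 628 and 327 CPM in early G&N libraries and 185 and 150 CPM in late ones. In G&N-L libraries it had 327 and 344 CPM early and 231 and 360 CPM late. Oosp1, another marker of the list, had 3539 and 2818 CPM in early G&N-L libraries and 3505 and 4293 CPM in late ones. Its G&N libraries had 3991 and 4426 CPM early and 3707 and 4163 CPM late. The sum therefore does not stand for each marker. The 10 cumulus cell markers summed to 5.36 to 33.4 CPM. Amh and Inhba were at 0 in every library, while Cyp19a1 reached 22.9 CPM and Tnfaip6 19.1 CPM, with counts in 11 and 10 libraries. The 3 sperm markers summed to 1.81 to 19.3 CPM.

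Eed, Ezh2 and Suz12 were more abundant per length than every H3K4 methyltransferase gene in all 7 groups, while Ezh1 was not. In early G&N embryos Eed, which reads H3K27 trimethylation and binds the catalytic subunit, stood first at 198 ± 12.9 CPM per kilobase (SD, n = 2 libraries here and below). Ezh2, the main catalytic subunit in dividing cells, followed at 77.2 ± 16.0, and Suz12, the scaffold of the complex, at 42.0 ± 10.9. In late G&N embryos Suz12 stood first at 94.9 ± 28.7 CPM per kilobase, Eed second at 77.5 ± 8.96 and then Ezh2 at 57.9 ± 7.81. The early order of Eed, Ezh2 and Suz12 was the same in the G&N-L embryos, and so was the late order in all 5 late groups. The libraries of late Suz12 and Eed overlapped in G&N embryos, and those of Eed and Ezh2 overlapped in G&N-L and in Lac-CoA embryos, so these neighbours were not separated by their spread.

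**Figure D1:**
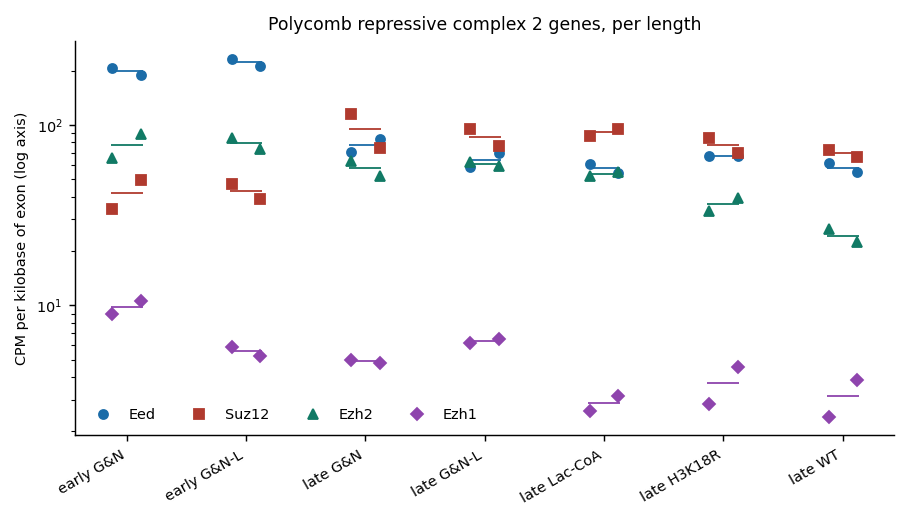
CPM per kilobase of exon (log axis) of the 4 PRC2 core genes in the 7 groups, with a symbol for each library and a dash for the mean of 2 libraries. Eed lies above Ezh2 and Suz12 in the 4 early libraries, and Suz12 has the highest mean in each late group.

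The ratio of Eed to Suz12 per length showed the exchange library by library. It was 6.03 and 3.79 in early G&N libraries and 4.93 and 5.48 in early G&N-L libraries. In the 10 late libraries it lay between 0.566 and 1.12, and a single late G&N library was above 1. Ezh1, the catalytic subunit typical of non-dividing cells, stayed well below Ezh2: the ratio of Ezh2 to Ezh1 ran from 5.78 in a WT library to 20.1 in a Lac-CoA library. Its mean was also below that of Kmt2c in every group but early G&N, at 4.89 ± 0.126 against 14.7 ± 3.37 CPM per kilobase in late G&N embryos.

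Among the H3K4 methyltransferase genes, Kmt2c and Kmt2d, which encode the enhancer-bound monomethyltransferases MLL3 and MLL4, had the highest means per length in every group. The libraries of Kmt2d and Setd1a overlapped in early G&N embryos. Kmt2c ran from 5.16 to 17.1 CPM per kilobase over the 14 libraries, Kmt2d from 2.31 to 5.32, and Setd1a, which encodes an enzyme of promoter trimethylation, from 1.39 to 3.72. Kmt2b, whose product deposits H3K4 trimethylation in oocytes, ran from 0.340 to 2.49 CPM per kilobase, and Setd1b, the paralogue of Setd1a, from 0.133 to 1.15. Kmt2a, which encodes MLL1, was last in every group, at 0 to 114 counts a library and at most 0.187 CPM per kilobase. Of the exon bases of Setd1a, 52.0% are shared with other annotated genes, and 16.8% of those of Kmt2c, 9.59% of those of Ezh1, 9.21% of those of Eed and 7.35% of those of Kmt2a. The kit was not named as strand-specific, so reads in those stretches cannot be assigned to one gene with certainty. The order of Kmt2d and Setd1a per length is therefore not certain.

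**Figure D2:**
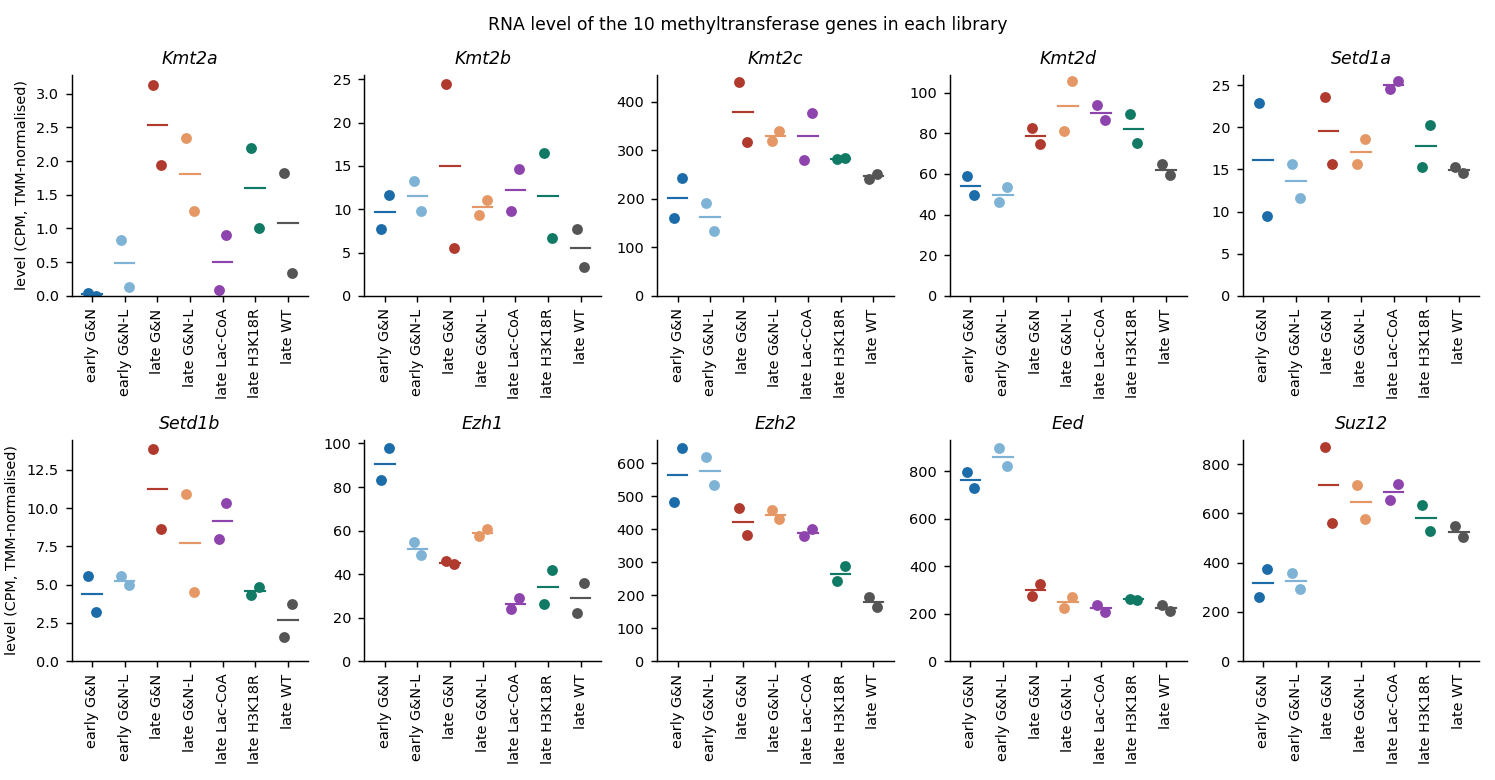
RNA level (CPM, TMM-normalised, axis from 0) of the 10 genes in the 2 libraries of each group, with a line at the mean. Eed falls and Suz12 and Kmt2c are higher from the early to the late libraries, while Kmt2a, Kmt2b and Setd1b lie at low levels and differ between replicates.

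The comparison of the early with the late 2-cell stage gave the most calls among these genes, those of Eed, Suz12 and Kmt2c. Eed fell in both media, and Suz12 and Kmt2c rose in embryos without lactate, with no called difference between the media. With lactate, 1 of the 10 genes was called at an adjusted p under 0.05 (edgeR's quasi-likelihood test with Benjamini-Hochberg adjustment over all genes tested), against 13.7% of 19443 genes, of which 8.18% were higher and 5.47% lower late. Without lactate 3 of the 10 were called, 2 higher and 1 lower, against 11.8% of 18604 genes, of which 5.97% were higher and 5.87% lower. At an unadjusted p under 0.05 the counts were 4 of 10 with lactate, against 34.4% of all genes, and 5 of 10 without, against 32.5%. The median log2 fold change of the 10 genes was 0.50 with lactate and 0.37 without, beside 0.08 and 0.15 over all genes tested. With lactate the share called was near that of all genes. The oocyte marker sums were lower in the late libraries too, going from 26860 and 27420 CPM early to 13080 and 15090 late with lactate, and from 20530 and 23590 to 16710 and 19190 without. Their part in these results was not tested.

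Eed (chromosome 7, 89603862 to 89630217, minus strand, GRCm39) had 797 and 727 CPM in early G&N libraries and 274 and 323 CPM in late ones. Without lactate it had 897 and 821 CPM early and 225 and 268 CPM late. All 4 early libraries lay above all 10 late libraries, whose highest Eed level was 323 CPM. The log2 fold change of Eed was -1.43 (SE 0.235, adjusted p = 0.0216) with lactate and -1.87 (SE 0.155, adjusted p = 0.00629) without. With lactate the adjusted p became 0.129 or 0.101 when either late library was left out, with log2 fold changes of Eed of -1.34 and -1.56.

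Suz12 (chromosome 11, 79883891 to 79925421, plus strand) moved the other way. It had 357 and 293 CPM in early G&N-L libraries and 715 and 578 CPM in late ones, a log2 fold change of 0.93 (SE 0.184, adjusted p = 0.0389). With lactate it had 259 and 376 CPM early and 869 and 562 CPM late, where the log2 fold change of 1.08 had a larger SE of 0.378 and did not pass the threshold (adjusted p = 0.107). This value of Suz12 passed with DESeq2 (adjusted p = 0.0146), with no filter (0.0147), with at least 10 counts in every library (0.023) and with all 14 libraries in 1 fit (0.012), and the change of Suz12 was not shown to differ between the media. The lowest Suz12 level of the 10 late libraries, 504 CPM, was above the highest of the 4 early ones, 376 CPM.

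Kmt2c (chromosome 5, 25476796 to 25703810, minus strand) had 190.45 and 133 CPM in early G&N-L libraries and 319.84 and 339 CPM in late ones. The log2 fold change of Kmt2c was 0.96 (SE 0.201, adjusted p = 0.0437). With lactate Kmt2c had 161 and 242 CPM early and 441 and 318 CPM late, and the log2 fold change of 0.81 (SE 0.365) did not pass (adjusted p = 0.187). One late WT library lay at 242 CPM, level with the highest early library, and the other 9 late libraries were higher. The calls of Suz12 and Kmt2c without lactate were lost when any of the 4 libraries was left out, with adjusted p from 0.0517 to 0.155 for Suz12 and from 0.0573 to 0.163 for Kmt2c.

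**Figure D3:**
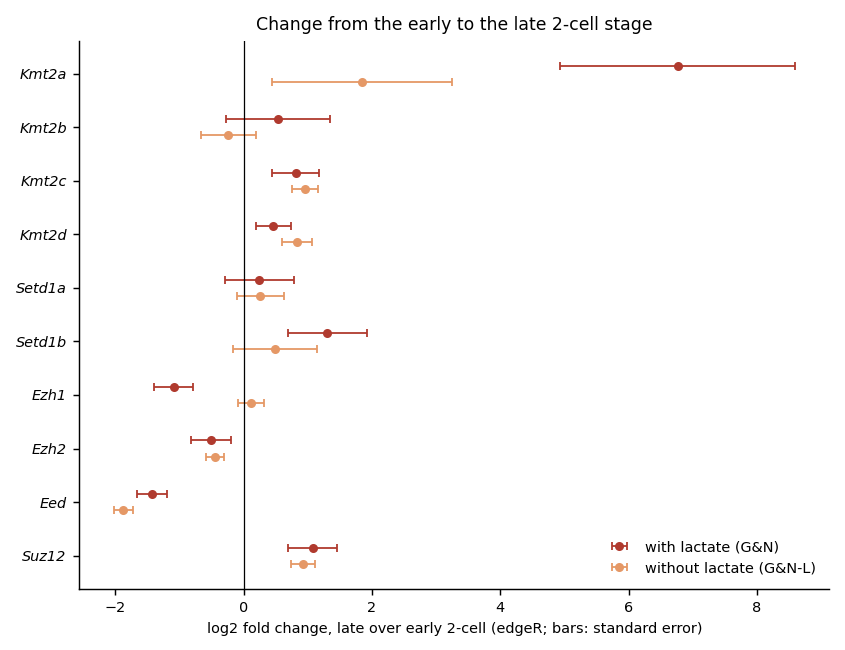
Fitted log2 fold changes from the early to the late 2-cell stage for the 10 genes, with lactate and without, with bars for the standard error. Eed lies at -1.43 and -1.87, Suz12 at 1.08 and 0.93 and Kmt2c at 0.81 and 0.96.

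The remaining genes did not pass edgeR's test between stages in either medium. DESeq2 on the same genes called Kmt2a (adjusted p = 0.00106) and Ezh1 (0.0159) as well as Suz12 and Eed with lactate, and Kmt2d (0.00752) and Ezh2 (0.0297) as well as Eed, Suz12 and Kmt2c without. With no filter Kmt2a (adjusted p = 0.0287) and Ezh1 (0.0283) also passed with lactate, and Kmt2d passed without lactate on library totals (0.0402) and with at least 10 counts in every library (0.0266). Kmt2d had 46.1 and 53.6 CPM in early G&N-L libraries and 81.3 and 106 CPM in late ones (log2 fold change 0.83, SE 0.236, adjusted p = 0.075), and its highest early level over both media, 58.8 CPM, was just below its lowest late level of 59.2 CPM. With lactate the log2 fold change of Kmt2d was 0.47 (SE 0.271, adjusted p = 0.295). Ezh2 had 481 and 646 CPM in early G&N libraries and 463 and 382 CPM in late ones, a log2 fold change of -0.51 (SE 0.309, adjusted p = 0.313), and one of -0.45 without lactate (SE 0.145, adjusted p = 0.0967). Setd1a showed 0.25 and 0.26 with SEs of 0.538 and 0.366, Setd1b 1.31 and 0.49 with SEs of 0.621 and 0.661, and Kmt2b 0.53 and -0.24 with SEs of 0.814 and 0.429.

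Kmt2a, the least abundant of the genes, had 2 and 0 counts in early G&N libraries and 114 and 84 in late ones. The ratio of its late to early level was 118 with an exact 95% interval of 32.2 to 979, which covers counting error only, and the fitted test gave an adjusted p of 0.0634. Without lactate Kmt2a had 33 and 3 counts early and 90 and 48 late, a ratio of 3.11 (2.14 to 4.62). The early Kmt2a libraries of this medium differ from each other by more than that ratio, and the test gave an adjusted p of 0.457.

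Scaling moved the size of all stage changes. With library totals in place of TMM sizes the median log2 fold change over all genes was 0.46 with lactate and 0.51 without, and 76.4% and 72.6% of the called genes were higher late, against 59.9% and 50.4% with TMM. On that scale Eed changed by -1.04 with lactate and -1.51 without (adjusted p = 0.0358 and 0.00846), Suz12 was higher by 1.505 and 1.29 (adjusted p = 0.0497 and 0.0155), and Kmt2c by 1.24 and 1.33 (adjusted p = 0.0655 and 0.0161). The directions of Eed, Suz12 and Kmt2c were the same on both scales, and that of Kmt2b without lactate turned from -0.24 to 0.13.

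The proximal promoters of the 3 genes that were called between stages are shown to set the gene that fell beside those that rose. They are the RefSeq windows from 250 bases before to 50 after the start, each matched once on GRCm39, and windows for 8 of the 10 genes were matched. Eed lies at chr7:89630135-89630434 on the minus strand, Suz12 at chr11:79883682-79883981 on the plus strand and Kmt2c at chr5:25703732-25704031 on the minus strand, each written 5′ to 3′ on the strand of the gene. Capitals mark matches to the motifs searched, each on both strands. These were the GC box, which is GGGCGG, and the CCAAT box with those letters. The TATA box was searched as TATAAA. The core site of OTX factors was searched as GGATTA. The half-site of nuclear receptors was searched as AGGTCA.
Eed: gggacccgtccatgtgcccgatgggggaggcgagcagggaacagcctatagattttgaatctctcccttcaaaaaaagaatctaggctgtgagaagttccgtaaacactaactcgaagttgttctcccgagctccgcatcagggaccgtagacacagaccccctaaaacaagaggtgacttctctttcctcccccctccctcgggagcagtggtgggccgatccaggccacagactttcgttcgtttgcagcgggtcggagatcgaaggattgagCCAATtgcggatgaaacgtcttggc
Suz12: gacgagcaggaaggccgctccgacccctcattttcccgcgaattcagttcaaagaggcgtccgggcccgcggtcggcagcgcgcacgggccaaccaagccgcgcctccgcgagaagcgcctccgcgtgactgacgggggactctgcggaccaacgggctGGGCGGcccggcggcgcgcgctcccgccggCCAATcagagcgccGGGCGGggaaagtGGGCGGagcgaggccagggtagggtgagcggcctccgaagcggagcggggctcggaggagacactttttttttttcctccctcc
Kmt2c: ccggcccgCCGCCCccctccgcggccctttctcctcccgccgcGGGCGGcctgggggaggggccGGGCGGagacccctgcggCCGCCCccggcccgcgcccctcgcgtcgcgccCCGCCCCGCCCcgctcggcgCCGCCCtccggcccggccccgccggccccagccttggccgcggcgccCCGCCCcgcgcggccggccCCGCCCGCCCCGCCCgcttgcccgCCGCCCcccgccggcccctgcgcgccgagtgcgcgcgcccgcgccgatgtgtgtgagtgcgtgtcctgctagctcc

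The window of Eed held 17 CG dinucleotides, no GC box and 1 CCAAT box. That of Suz12 held 41 CG dinucleotides, 3 GC boxes and 1 CCAAT box, and that of Kmt2c held 56 CG dinucleotides and 12 GC boxes, 3 pairs of which overlap. Over all 32851 windows the median was 7 CG dinucleotides, and 70.3%, 97.0% and 99.8% of windows had no more than Eed, Suz12 and Kmt2c. A GC box was present in 35.7% of all windows, a CCAAT box in 37.4%, a TATA box in 13.6%, an OTX core in 7.06% and a half-site in 16.3%. The last 3 motifs had no match in the printed windows. Among the other matched genes Kmt2a had 5 GC boxes, Kmt2d had 4, and Ezh1, Ezh2 and Setd1a had none.

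Removal of lactate was compared within each stage, which asks whether these genes respond when embryos with blocked lactate dehydrogenase lose the supply in the medium. None of the 10 genes passed the adjusted test in late embryos, where 0% of 19481 genes did, and none had an unadjusted p under 0.05, against 12% of all genes. DESeq2 on the same genes called 916 genes at this contrast and none of the 10. Late G&N-L and G&N libraries overlapped for 8 of the 10 genes. The share of all genes with overlapping libraries is not given, so such counts, here and below, do not set these genes apart. Ezh1 had 57.5 and 60.6 CPM without lactate and 46.1 and 44.5 CPM with it, a log2 fold change of 0.43 (SE 0.246, adjusted p = 0.625). Eed had 225 and 268 CPM without lactate and 274 and 323 CPM with it (-0.23, SE 0.195, adjusted p = 0.804). The PRC2 genes Suz12 and Ezh2 differed by -0.11 (SE 0.287) and 0.11 (SE 0.204) on the log2 scale, and Kmt2c and Kmt2d by -0.16 (SE 0.241) and 0.30 (SE 0.248). The fitted differences of Kmt2a, Kmt2b, Setd1a and Setd1b were -0.45, -0.53, -0.16 and -0.50, with SEs of 1, 0.769, 0.412 and 0.643.

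In early embryos 9 of the 10 genes could be tested, Kmt2a being too low, and none passed, as did 0% of 17343 genes, while DESeq2 called 37 genes and none of the 9. At an unadjusted p under 0.05 there was 1 of 9, against 4.52% of all genes. This was Ezh1, with 54.7 and 48.7 CPM in G&N-L libraries and 83.3 and 97.9 CPM in G&N libraries, a log2 fold change of -0.70 (SE 0.246, adjusted p = 1). Eed had 897 and 821 CPM without lactate and 797 and 727 CPM with it, a difference of 0.30 (SE 0.165, adjusted p = 1). The other 7 genes tested had overlapping libraries, with fitted differences from -0.23 for Kmt2c (SE 0.320) to 0.41 for Setd1b (SE 0.556).

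The difference between the stages in the response to lactate was tested as an interaction over 8 libraries. None of the 10 genes passed, as did 0% of 22287 genes, while DESeq2 called 231 genes and none of the 10. At an unadjusted p under 0.05 there was again 1 of the 10, Ezh1, against 7.55% of all genes. Ezh1 went from 83.3 and 97.9 CPM early to 46.1 and 44.5 CPM late with lactate (log2 fold change -1.09, SE 0.301, adjusted p = 0.0657) and from 54.7 and 48.7 to 57.5 and 60.6 CPM without (0.12, SE 0.200, adjusted p = 0.763). The interaction of Ezh1 was 1.17 (SE 0.353, adjusted p = 0.639). For Eed it was -0.49 (SE 0.260, adjusted p = 0.69), and for Suz12 -0.19 (SE 0.438) and Kmt2c 0.11 (SE 0.432). It was 0.32 for Kmt2d (SE 0.357), -0.81 for Kmt2b (SE 0.987), -0.86 for Setd1b (SE 0.922), -0.029 for Setd1a (SE 0.668) and 0.020 for Ezh2 (SE 0.346). The value of Kmt2a, -4.92 (SE 2.30, adjusted p = 0.655), rests on the 2 counts of the early G&N libraries and is no measure of size.

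**Figure D4:**
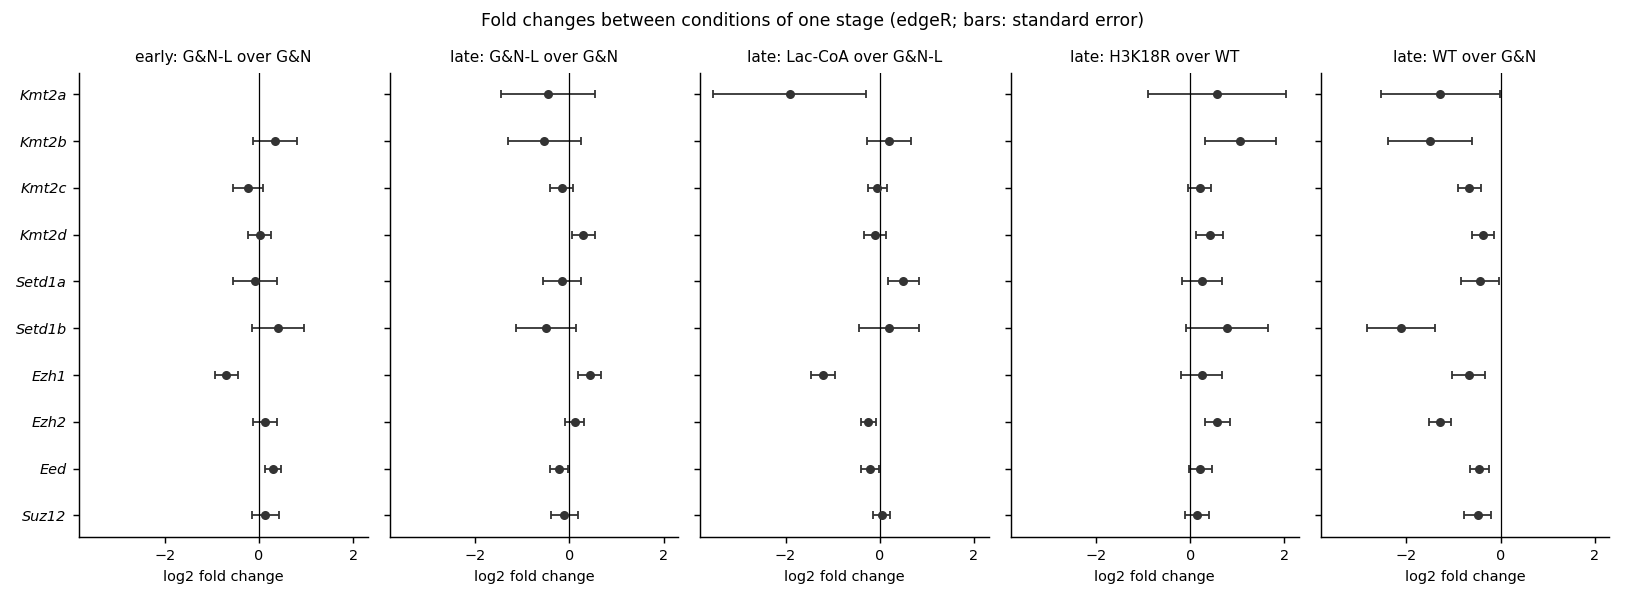
Fitted log2 fold changes of the 10 genes in 5 comparisons within a stage, with bars for the standard error, where Kmt2a was not tested in early embryos. Ezh1 lies at -1.21 after Lac-CoA injection, Ezh2 lies at -1.29 in WT against G&N embryos, and all 10 points lie below 0 in that comparison and above 0 in H3K18R against WT embryos.

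Injection of Lac-CoA was compared with G&N-L embryos, which asks whether these genes differ after injection of the lactylation donor when lactate is missing. No group of G&N-L embryos with a mock injection is among the libraries. Lac-CoA and the injection itself therefore cannot be told apart, here or against late G&N embryos below. None of the 10 passed the adjusted test, as did 0% of 19610 genes, and 1 of the 10 had an unadjusted p under 0.05, against 13.3% of all genes. That gene was Ezh1, with 23.9 and 29.0 CPM in the Lac-CoA libraries and 57.5 and 60.6 CPM in the G&N-L libraries, a log2 fold change of -1.21 (SE 0.260, adjusted p = 0.294). DESeq2 called it on the same genes, at an adjusted p of 0.00672, among 1183 genes. The oocyte marker sums of these libraries were 9888 and 14070 CPM with Lac-CoA and 16710 and 19190 CPM without, and their part in the difference of Ezh1 was not tested. Ezh2 had 378 and 399 CPM after injection and 456 and 430 CPM without it (-0.24, SE 0.158, adjusted p = 0.629), and Setd1a had 24.6 and 25.5 CPM against 15.7 and 18.5 CPM (0.50, SE 0.336, adjusted p = 0.643). Kmt2a had 4 and 39 counts after injection and 90 and 48 without it (adjusted p = 0.741), and the libraries of the other 6 genes overlapped, with fitted differences from -0.20 for Eed (SE 0.189) to 0.20 for Kmt2b (SE 0.469).

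Against late G&N embryos the Lac-CoA embryos showed no called gene among the 10, as among 0% of 19613 genes, and none with an unadjusted p under 0.05, against 8.51% of all genes. DESeq2 called 471 genes at this contrast and none of the 10. The fitted difference of Ezh1 was -0.69 (SE 0.305, adjusted p = 0.662), from 46.1 and 44.5 CPM in G&N libraries to 23.9 and 29.0 CPM. Suz12, Ezh2 and Kmt2c lay within 0.13 of 0 on the log2 scale, with SEs of 0.283, 0.221 and 0.284. The differences were -0.34 for Eed (SE 0.211), 0.29 for Kmt2d (SE 0.244), 0.43 for Setd1a (SE 0.399), -0.22 for Setd1b (SE 0.526), -0.23 for Kmt2b (SE 0.778) and -2.26 for Kmt2a (SE 1.54).

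H3K18R was compared with WT to ask whether these genes respond when lysine 18 of the injected H3 cannot be modified. None of the 10 passed the adjusted test, which called 0.00565% of 17704 genes, a single gene. None had an unadjusted p under 0.05, against 6.44% of all genes, and DESeq2 called 118 genes and none of the 10. All 10 fitted differences were positive, with a median log2 fold change of 0.33 beside 0.03 over all genes and with 48.6% of all genes below 0. The log2 fold change of Ezh2 was 0.58 (SE 0.268, adjusted p = 0.83), with 243 and 287 CPM in H3K18R libraries and 193 and 163 CPM in WT libraries. Kmt2d had 89.3 and 75.2 CPM against 64.8 and 59.2 CPM (0.41, SE 0.290), Eed had 261 and 258 against 237 and 210.17 (0.22, SE 0.252), and Kmt2c had 281 and 284 against 242 and 252 (0.20, SE 0.246). The remaining differences ran from 0.15 for Suz12 (SE 0.257) to 1.07 for Kmt2b (SE 0.761). When single libraries were left out, the fitted differences of Ezh1 and Kmt2a took both signs.

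The WT embryos were also compared with late G&N embryos, where the inhibitor, NMN, the medium and the injection of mRNA cannot be told apart. All 10 genes had a negative fitted difference, with a median log2 fold change of -0.67 beside -0.16 over all genes, of which 54.3% were below 0. Without the first G&N library, the difference of Kmt2b was 0.020. Ezh2 was called lower, as 1 of the 10, against 4.62% of 18986 genes called, and 3 of the 10 had an unadjusted p under 0.05, against 28.0%. Ezh2 (chromosome 6, 47507073 to 47572331, minus strand) had 193 and 163 CPM in WT libraries and 463 and 382 CPM in G&N libraries, a log2 fold change of -1.29 (SE 0.227, adjusted p = 0.0476). This call was lost with the size factors of DESeq2 in edgeR (adjusted p = 0.0546) and when any library was left out (0.0555 to 0.154). Setd1b had 1.60 and 3.75 CPM in WT libraries and 13.9 and 8.66 CPM in G&N libraries (-2.11, SE 0.722, adjusted p = 0.132), and Kmt2c had 242 and 252 CPM against 441 and 318 CPM (-0.66, SE 0.249, adjusted p = 0.162). The remaining differences ran from -1.496 for Kmt2b (SE 0.899) to -0.38 for Kmt2d (SE 0.237), with -0.45 for Eed (SE 0.195) and -0.49 for Suz12 (SE 0.280). The oocyte marker sums were 3546 and 3660 CPM in WT libraries, the lowest of all groups, and 13080 and 15090 CPM in G&N libraries. Their part in the difference of Ezh2 was not tested.

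The H3K18R libraries lay between both groups for Ezh2, at 243 and 287 CPM, and all 4 libraries of H3K18R and WT embryos lay below the 6 other late libraries, the lowest of which had 378 CPM. The highest Ezh2 level, 646 CPM, was that of an early G&N library. The oocyte marker sums of the H3K18R libraries, 3941 and 8116 CPM, were also below those of the 3 late groups without H3 mRNA. The comparisons of WT with H3K18R and with G&N embryos share the WT libraries, so their opposite signs are not independent of each other.

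Partner proteins of both complexes and the demethylases that remove the marks were followed between the stages for context. Of all genes tested, 5.47% were called lower and 8.18% higher late with lactate, and 5.87% lower and 5.97% higher without, which is the background for the counts of each list. The lists were chosen with earlier results of these data known, so a share above the background is no test of a list. Of 13 COMPASS partners tested, 1 was lower and none higher late with lactate, and 2 were lower and 1 higher without. Rbbp5, a subunit of the COMPASS core, fell in both media (log2 fold change -2.12, SE 0.421, adjusted p = 0.0341 with lactate, and -1.74, SE 0.317, adjusted p = 0.0317 without), from 34.8 and 28.5 CPM to 6.34 and 8.93 CPM with lactate. Dpy30, another core subunit, fell without lactate (-1.30, SE 0.147, adjusted p = 0.0117), from 1689 and 1375 CPM to 616 and 690.0 CPM, and its value with lactate was -1.19 (SE 0.297, adjusted p = 0.0552). Ncoa6, a subunit of the Kmt2c and Kmt2d complexes, rose without lactate (0.97, SE 0.196, adjusted p = 0.0409), and its value with lactate was 1.11 (SE 0.404, adjusted p = 0.117).

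Of the PRC2 partners, 2 of 11 tested with lactate and 2 of 10 without were lower, and none was higher, against 5.47% and 5.87% of all genes lower. Rbbp7, a histone-binding subunit, fell from 5260 and 5254 CPM to 398 and 628 CPM with lactate (-3.44, SE 0.330, adjusted p = 0.00731), and its log2 fold change without lactate was -3.17 (SE 0.218, adjusted p = 0.00512). Ezhip, which encodes an inhibitor of the complex present in germ cells, changed by -1.72 with lactate (SE 0.371, adjusted p = 0.0412) and by -2.51 without (SE 0.253, adjusted p = 0.00887), falling from 508 and 402 CPM to 67.0 and 101 CPM in the latter medium.

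Of the demethylases, 3 of 8 tested were higher late with lactate and none lower, and 2 of 9 were higher and 1 lower without, against 8.18% and 5.97% of all genes higher. Kdm5b, an H3K4 demethylase, had 8.71 and 10.1 CPM in early G&N libraries and 189 and 215 CPM in late ones (4.34, SE 0.321, adjusted p = 0.00599). Without lactate Kdm5b had 20.9 and 11.2 CPM early and 65.4 and 53.9 CPM late (1.83, SE 0.365, adjusted p = 0.039). Its paralogue Kdm5a rose with lactate from 5.85 and 6.72 to 74.3 and 65.7 CPM (3.39, SE 0.372, adjusted p = 0.00972) and had 11.8 and 13.8 CPM early and 30.03 and 37.1 CPM late without it (1.31, SE 0.319, adjusted p = 0.0603). The interaction of stage and lactate was -2.54 for Kdm5b (SE 0.453, adjusted p = 0.494) and -2.12 for Kdm5a (SE 0.465, adjusted p = 0.536), so the difference between the media did not pass the test over all genes. Kdm1a, which removes H3K4 monomethylation and dimethylation, fell without lactate (-1.76, SE 0.290, adjusted p = 0.0254), and its value with lactate was -1.12 (SE 0.348, adjusted p = 0.0794). Uty, the Y-linked relative of an H3K27 demethylase, had 0 counts in all 4 early libraries. It was at least 367-fold higher late with lactate and at least 322-fold higher without, against a floor of 3 counts over the group. Uty is among the genes counted as higher in both media. Only male embryos carry it, and the share of male embryos in each pool is not given.

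**Figure D5:**
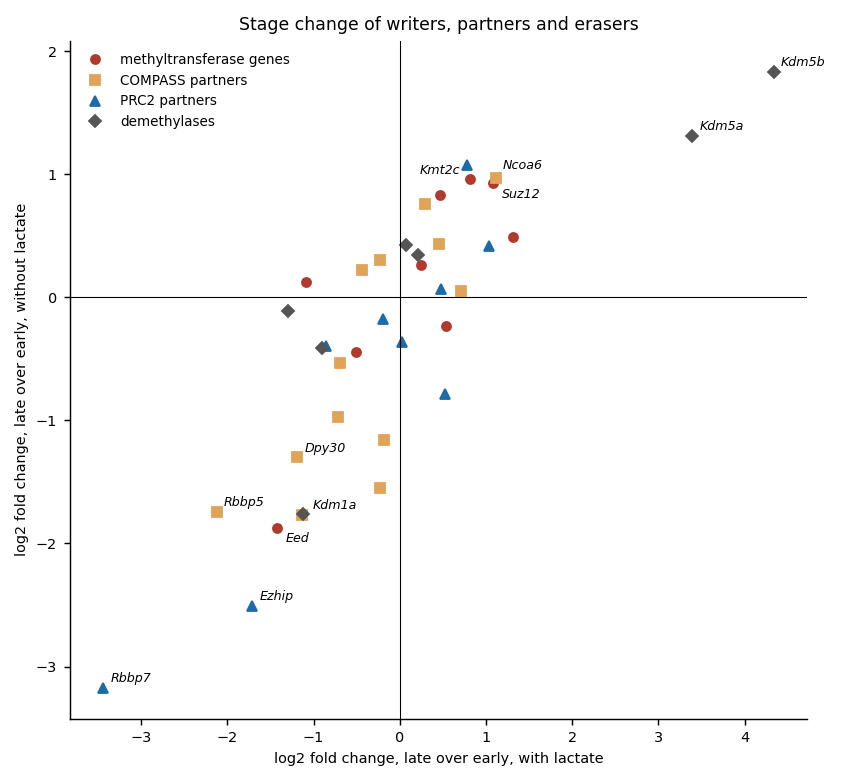
Log2 fold change from the early to the late 2-cell stage with lactate (horizontal) and without (vertical) for 38 genes, with names for those called in either medium. Left out are 5 genes that had a count of 0 in an early or late library of these groups or were not tested in both media. Pagr1a, tested in no comparison, is not shown either. Rbbp7 lies lowest on both axes at -3.44 and -3.17, Kdm5b highest at 4.34 and 1.83, and Suz12 and Kmt2c lie opposite Eed.

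In the comparisons within a stage no partner or demethylase passed the adjusted test, apart from Bod1l in WT against late G&N embryos. That test called 4.62% of all genes there, 0.00565% in H3K18R against WT and 0% in the others. In late G&N-L against G&N embryos 4 of 9 demethylases had an unadjusted p under 0.05, against 12% of all genes. They did not share a direction. Kdm5b (log2 fold change -1.71) and Kdm5a (-1.02) were lower without lactate, and Kdm6a (0.61) and Kdm5c (1.45) were higher. The counts were 1 of 13 for COMPASS partners and 0 of 10 for PRC2 partners. In Lac-CoA against G&N-L embryos the counts were 4 of 9, 2 of 13 and 1 of 10, against 13.3%. Of those 4 demethylases Kdm5b was higher after injection (1.08). Kdm6a (-0.51), Kdm5c (-0.98) and Kdm5d (-5.75) were lower. Kdm5d is Y-linked, and the share of male embryos in each pool is not given. Bod1l, a partner of the Setd1 complexes, had 159 and 138 CPM in WT libraries and 43.2 and 47.0 CPM in G&N libraries (1.69, SE 0.221, adjusted p = 0.0413). The median log2 fold changes in that comparison were -0.37 for 13 COMPASS partners, -0.88 for 10 PRC2 partners and 0.08 for 9 demethylases, beside -0.67 for the 10 methyltransferase genes.

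The genes whose levels followed those of Eed most closely over the 14 libraries were Spcs1, with a Pearson r of log2 CPM of 0.994, and Pttg1, with 0.992. For Suz12 they were Ube2d2a (0.969) and Arfgef1 (0.966), and for Kmt2c Mbtd1 (0.951) and Cdc34 (0.947). For Ezh2 the closest named gene was Coq10b (0.976), and for Kmt2d Bmi1 (0.914), a gene of Polycomb repressive complex 1. For Ezh1 they were Stk3 (0.912) and Acoxl (0.911). The 14 libraries form an early and a late set that share these differences of stage and of normalisation, and the coefficients describe likeness only.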

How the data were processed

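Per the labels and the study's methods, reads were checked with FastQC, trimmed with Trim Galore, aligned to mm39 with HISAT2 and counted with featureCounts; the strand setting and annotation release are not given in the sources used here. The authors deposited raw counts per gene without normalization for 14 libraries (20350427 to 61275465 counts), whose mutant columns are named K18A where the titles say H3K18R. Exon lengths, overlaps and coordinates came from GENCODE vM39 on GRCm39 (mm39), where 56236 of 56923 identifiers were found.

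Only the 4 libraries compared entered a fit (8 for the interaction), with edgeR 4.0.16 in R 4.3.3: filterByExpr, TMM, and the two-sided quasi-likelihood test with Benjamini-Hochberg adjustment over all genes tested, with 0.05 as the threshold. SE is the absolute log2 fold change over the square root of F. Levels are CPM with TMM over all 14 libraries and can differ slightly from fitted folds. An exact permutation test of 2 against 2 cannot go below p = 0.333. Amplified reads are not independent molecules, so intervals and floors cover counting error only. No label says that the 2 libraries of a group came from separate collections, so p-values measure the spread between libraries. Replicates differed by more than counting noise (chi-square per degree of freedom 47.8 to 195). Scripts were tested on simulated data with a fixed spread and large changes only, which does not measure power for the genes here.

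The 10 genes and the partner, demethylase and marker lists were chosen with earlier results of these data known. All 10 were tested in every comparison, apart from Kmt2a in early embryos, with values or their range given. Partners were named where called in a comparison, and demethylases also where they made up a printed count at an unadjusted p under 0.05. Likeness was given as the 2 genes of highest Pearson r, from log2 CPM with a prior count of 2. Alternatives were DESeq2 1.42.0, its size factors, library totals, no filter, at least 10 counts in every library, 1 fit of 14 libraries, a replicate block and each library left out.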

Additional observations from a re-analysis of the deposited data

How the results depend on the processing

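Of 1014 values of single genes under an alternative, 919 kept their direction and their side of the threshold, 17 lost a call, 14 gained one and 64 changed sign. The lowest main adjusted p of those that changed sign was 0.365. Eed fell from the early to the late stage without lactate under every alternative run, at an adjusted p of 0.0405 or less. Depth limits Kmt2a, Setd1b and Kmt2b most, since their libraries held as few as 0, 37 and 109 counts.

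The number of the 10 genes called was 1 for Lac-CoA against G&N-L embryos with DESeq2, which called 1183 of 19610 genes. The main test called 0 there. For WT against late G&N embryos it was 0 with the size factors of DESeq2, where the main test called 1. Those size factors gave 597 of 18986 genes. Between the stages with lactate the main test called 1 of the 10. That number was 4 with DESeq2 and with no filter on low counts. It was 2 with library totals, with all 14 libraries in 1 fit, and of the 9 tested with at least 10 counts in every library. DESeq2 called 5959 of 19443 genes in all, no filter 5060 of 29321 and library totals 2623 of 19443. The 1 fit called 3409 of 25041 and at least 10 counts 3217 of 12477. Without lactate DESeq2 called 5218 of 18604 genes in all, library totals 2504 of 18604 and at least 10 counts 2797 of 11971. The number of the 10 genes called without lactate, 3 in the main test, was 5 with DESeq2 and 4 with library totals. With at least 10 counts in every library it was 4 of the 9 tested. With a library left out it ranged from 0 to 0 for WT against late G&N embryos, from 0 to 1 between the stages with lactate and from 1 to 1 without. When this left 1 library in a group, that library was taken to vary like the others. The cause of these changes was not tested.

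The deviations of same-numbered libraries correlated over genes at -0.0402 to 0.00709, so they showed no shared deviation. Whether libraries of the same number were collected together is not given, and this check cannot tell. With the number as a block, 1 of the 10 genes was called between the stages without lactate in place of 3, where the adjusted p was 0.0542 for Suz12 and 0.0737 for Kmt2c. The block gave 1839 genes in all between the stages with lactate and 1391 without, and turned Kmt2b in Lac-CoA against late G&N embryos to 0.13.

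Other settings turned the sign of log2 fold changes that were not called. With library totals they became -0.017 for Kmt2d in early G&N-L against G&N embryos, 0.056 for Kmt2c and 0.0081 for Kmt2d in Lac-CoA against G&N-L, 0.0065 for Ezh2 in Lac-CoA against late G&N, 0.13 for Kmt2b between the stages without lactate and 0.024 for Setd1a in the interaction. With all 14 libraries in 1 fit they were -0.11 for Kmt2d in early embryos, -0.059 for Suz12 in Lac-CoA against late G&N and 0.041 for Setd1a in the interaction. For Ezh2 in the interaction they were -0.041 with DESeq2, -0.041 with its size factors and -0.030 with at least 10 counts in every library.

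With a library left out, log2 fold changes took both signs in late G&N-L against G&N embryos for Kmt2b (-1.18 to 0.99), Kmt2c (-0.34 to 0.14), Setd1a (-0.38 to 0.22), Setd1b (-1.29 to 0.0068) and Suz12 (-0.34 to 0.29). In early embryos they did so for Kmt2b (-0.00095 to 0.80), Kmt2c (-0.56 to 0.23), Kmt2d (-0.18 to 0.19), Setd1a (-0.52 to 0.55), Ezh2 (-0.14 to 0.49) and Suz12 (-0.19 to 0.55). In Lac-CoA against G&N-L embryos the ranges were -0.093 to 0.45 for Kmt2b, -0.27 to 0.13 for Kmt2c, -0.28 to 0.091 for Kmt2d, -0.31 to 0.97 for Setd1b and -0.12 to 0.21 for Suz12. Against late G&N embryos they were -0.96 to 1.24 for Kmt2b, -0.38 to 0.13 for Kmt2c, -0.55 to 0.17 for Setd1b, -0.21 to 0.11 for Ezh2 and -0.29 to 0.38 for Suz12. In H3K18R against WT they were -0.19 to 2.24 for Kmt2a and -0.13 to 0.62 for Ezh1, and in WT against late G&N -2.22 to 0.020 for Kmt2b. Between the stages they were -0.95 to 1.23 for Kmt2b and -0.16 to 0.996 for Setd1a with lactate, and -0.27 to 1.04 for Setd1b without. In the interaction they were -1.52 to 0.65 for Kmt2b, -0.27 to 0.43 for Kmt2c, -0.67 to 0.49 for Setd1a, -0.25 to 0.29 for Ezh2 and -0.53 to 0.17 for Suz12.

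The number of all genes called depended more on the method. With DESeq2, no filter, at least 10 counts in every library and all 14 libraries in 1 fit, in this order, it was 916, 317, 114 and 11 in late G&N-L against G&N embryos, where the main test called 0. In early embryos it was 37, 42, 0 and 4 against 0, in Lac-CoA against G&N-L 1183, 3, 2 and 0 against 0, and in Lac-CoA against late G&N 471, 22, 20 and 0 against 0. In H3K18R against WT it was 118, 78, 1 and 9 against 1, in WT against late G&N 4104, 3668, 2971 and 1281 against 877, and in the interaction 231, 361, 0 and 1 against 0. Between the stages it was 5959, 5060, 3217 and 3409 against 2654 with lactate, and 5218, 2975, 2797 and 2561 against 2203 without. With a library left out it ran from 220 to 2446 between the stages with lactate, from 335 to 1393 without, from 0 to 435 in WT against late G&N and from 0 to 26 in the interaction.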
